A study of Homo sapiens with 12 samples.

Results

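RNA-seq was used to follow 9 genes of the NRF2 antioxidant response in SW1783 cells, a human astrocytoma line, after 24 h with a water extract of the root of Aconitum carmichaeli Debeaux (ACD). The 9 genes are the transcription factor gene NFE2L2, its repressor KEAP1 and 7 targets, HMOX1, GCLC, GCLM, NQO1, TXNRD1, SRXN1 and OSGIN1. They are well-studied members of the pathway, chosen with earlier results of these data known, and all were found by symbol among the 60675 gene IDs of the deposited table. Extract was given at 20, 100 or 500 µg/mL (low, medium and high dose), the vehicle was PBS containing 2% DMSO, and each of the 4 groups had 3 libraries. By the study's methods the extract was made up in that solvent too. All groups share this 1 cell line, and nothing in the labels says that the libraries of a group came from separate cultures, so each p-value measures the spread between these libraries only. Titles and treatment labels name ACD, as the study does, whereas the protocol text filed with the samples is about the fungus Poria cocos.

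NRF2, the protein made from NFE2L2, is a transcription factor that pairs with small MAF proteins and binds antioxidant response elements in DNA. KEAP1 binds NRF2 and hands it to the CUL3 ubiquitin ligase for destruction, and electrophiles or oxidants that react with KEAP1 cysteines let NRF2 accumulate, largely without a change in its mRNA. In brain, astrocytes are known for an active NRF2 response and for supplying neurons with precursors of glutathione. Neither the NRF2 protein nor its binding to DNA was measured here.

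At the high dose 8 of the 9 genes were higher than in vehicle, where 23.9% of all genes tested were higher. KEAP1 was lower, as were 22.6% of all genes, and its call was lost under some other settings. HMOX1 rose most, 10.5-fold, followed by GCLC at 3.94-fold, OSGIN1 at 3.28-fold and SRXN1 at 1.96-fold. TXNRD1, NQO1, NFE2L2 and GCLM rose by between 1.38-fold and 1.55-fold. At the medium dose 6 genes were higher, where 15.1% of all genes were. At the low dose HMOX1 alone passed the test, where 3.29% of all genes did. A gene is said here to have differed, risen or fallen when its DESeq2 adjusted p was under 0.05, and to be a differentially expressed gene (DEG) when its fold change was also over 1.5. Levels are normalised read counts, that is, counts divided by a size factor for each library.

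The libraries held between 18863863 and 24200576 counts, with both extremes in dosed groups. Among 10 astrocyte and astrocytoma markers, VIM, CD44, SOX9, SLC1A3 and NES were expressed, while GFAP, S100B, ALDH1L1 and SLC1A2 were at or near 0 (at most 9.27 normalised counts in any library) and AQP4 was at 0 throughout. From vehicle to the high dose VIM averaged 88412 ± 4033 and 108048 ± 1073 (SD, n = 3), CD44 56908 ± 802 and 43678 ± 518, SOX9 1434 ± 47.2 and 1206 ± 64.5, SLC1A3 690 ± 21.8 and 126 ± 4.28, and NES 214 ± 11.6 and 64.7 ± 7.21. Summed, the 10 markers lay between 144286 and 152085 in the vehicle libraries, 149753 and 152822 at the low, 151159 and 156347 at the medium and 152314 and 154036 at the high dose. Of 9 markers of other cell types, 6 stayed under 20 normalised counts in every library. The other 3 were PTPRC, which averaged 275 in vehicle and 84.8 at the high dose, SNAP25, which averaged 704 and 167, and CD68, which averaged 2864 and 3953. The summed level of the 9 markers lay between 3785 and 3963 in the vehicle libraries, 3899 and 3979 at the low, 3815 and 4362 at the medium and 4097 and 4396 at the high dose. The part of these shifts in the results that follow was not tested.

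Short stretches of promoter are shown because they hold the letters by which NRF2 targets are usually recognised. RefSeq promoter windows of GRCh38.p14, from 250 bases before a start site to 50 after it, were at hand for 8 of the 9 genes, in 11 windows, and HMOX1 had no entry. Both strands were searched for the core of the antioxidant response element, TGACNNNGC, and for the looser form TGANNNNGC. Each stretch is written 5′ to 3′ in the direction of the gene, with the match in capitals and 12 bases on either side.
GCLM, core, chr1:93909444-93909476, gene on the minus strand: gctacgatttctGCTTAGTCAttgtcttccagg
TXNRD1, core, chr12:104215668-104215700, gene on the plus strand: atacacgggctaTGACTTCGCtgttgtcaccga
KEAP1, core, chr19:10502782-10502814, gene on the minus strand: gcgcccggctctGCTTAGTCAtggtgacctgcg
OSGIN1, looser form, chr16:83953129-83953161, gene on the plus strand: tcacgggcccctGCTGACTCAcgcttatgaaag
NQO1, looser form, chr16:69726659-69726691, gene on the minus strand: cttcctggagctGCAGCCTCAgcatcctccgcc
In the GCLM, KEAP1, OSGIN1 and NQO1 stretches the motif reads on the strand opposite to the gene. The core was found in 4 of the 11 windows, belonging to GCLM, KEAP1 and TXNRD1, which has 2 windows with it, and in 13.3% of all 35116 promoter windows. The looser form was found in 7 of the 11 windows and in 41.8% of all windows. The 7 belong to GCLM, KEAP1, NFE2L2, NQO1, OSGIN1 and TXNRD1. The windows of GCLC and SRXN1 held neither form. The OSGIN1 match overlaps the AP-1 site TGACTCA, which stood in 4.95% of all windows and in no other window of these genes. The cyclic AMP response element TGACGTCA (1.85% of all windows) and the CHOP-ATF4 element TGATGCAA (0.866%) were in 0 of the 11 windows. A match is a run of letters in a short window, and elements farther from the start site are outside it.

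NFE2L2 (ENSG00000116044, chr2:177218667-177392756, minus strand of GRCh38) is the gene of NRF2 itself, and it differed from vehicle at the high dose only. Its normalised counts were 1517, 1531 and 1509 in the vehicle libraries, 1366, 1362 and 1496 at the low dose, 1513, 1518 and 1603 at the medium dose and 2159, 2069 and 2139 at the high dose. The high dose libraries lay above all 9 others. The rise over vehicle was 0.48 on the log2 scale (SE 0.0486, adjusted p = 4.3e-22), or 1.40-fold, under the 1.5-fold limit for a DEG. Against vehicle the medium dose differed by 0.02 (95% interval -0.07 to 0.12, adjusted p = 0.766) and the low dose by -0.11 (adjusted p = 0.28). The medium dose was above the low dose by 0.13 (adjusted p = 0.0418). That call was lost with replicate number as a block (adjusted p = 0.0825). Same-numbered low and medium libraries correlated weakly in their deviations (0.124 to 0.193), and the labels give replicate numbers only. The call was also lost without low replicate 1 (adjusted p = 0.187) or low replicate 2 (0.21). The same held without medium replicate 1 (0.0662), medium replicate 2 (0.0798) or medium replicate 3 (0.253). Exons on the opposite strand, among them those of AGPS and HNRNPA3, cover 24.8% of the annotated exon bases of NFE2L2. Those of an unnamed gene on the same strand cover 13.6%. Whether the counting used strand is not given in the sources used here.

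KEAP1 (ENSG00000079999, chr19:10486125-10503558, minus strand), the adaptor that marks NRF2 for destruction, moved least of the 9 genes at the high dose. Vehicle libraries held 1045, 1107 and 1107 normalised counts, low dose libraries 1027, 1086 and 980, medium dose libraries 1098, 1075 and 1045, and high dose libraries 1012, 956 and 984. The 3 high dose libraries were below the 3 vehicle libraries, but overlapped with the low dose libraries. The difference at the high dose was -0.14 (95% interval -0.26 to -0.03, SE 0.0592, adjusted p = 0.0326). This call was lost without vehicle replicate 2 (adjusted p = 0.127), vehicle replicate 3 (0.118), high replicate 2 (0.149) or high replicate 3 (0.0812). KEAP1 was also the only 1 of the 9 genes that missed the test for any difference among the 4 groups (likelihood ratio test in DESeq2, adjusted p = 0.13), a test that 45.8% of all genes passed.

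HMOX1 (ENSG00000100292, chr22:35380361-35394214, plus strand) encodes haem oxygenase 1, the inducible enzyme that breaks haem into biliverdin, carbon monoxide and iron. Its normalised counts were 1177, 1155 and 1198 in vehicle, 1481, 1472 and 1412 at the low dose, 2241, 2478 and 2407 at the medium dose and 11976, 11990 and 13065 at the high dose. No libraries overlapped between any of the groups, and each higher dose stood above the dose before it. How many of all genes keep this order was not counted. Against vehicle HMOX1 was higher by 0.31 at the low dose (SE 0.0502, adjusted p = 2.72e-07), by 1.02 at the medium dose (SE 0.0483, adjusted p = 2.11e-95) and by 3.39 at the high dose (SE 0.0458, adjusted p below the smallest number the software can hold). Ranked by log2 fold change at the high dose among the 11263 genes averaging 100 or more normalised counts, HMOX1 was number 21. In these bulk libraries a larger number of cells with the transcript and more transcript in each cell cannot be told apart.

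GCLC (ENSG00000001084, chr6:53497341-53616970, minus strand) encodes the catalytic subunit of glutamate-cysteine ligase, which makes the first bond of glutathione. Vehicle libraries held 666, 654 and 642 normalised counts, low dose libraries 650, 680 and 746, medium dose libraries 1044, 1001 and 1091 and high dose libraries 2546, 2537 and 2649. The low dose libraries overlapped with vehicle, and the medium and high dose libraries lay clear of both. GCLC was higher by 0.68 at the medium dose (SE 0.0621, adjusted p = 8.67e-26) and by 1.98 at the high dose (SE 0.0588, adjusted p = 1.38e-245). At the low dose the difference was 0.08 (95% interval -0.05 to 0.21, adjusted p = 0.635).

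GCLM (ENSG00000023909, chr1:93885199-93909456, minus strand) encodes the modifier subunit of the same ligase and carries the core element next to its start, shown above. It had 1913, 1947 and 1994 normalised counts in vehicle, 1914, 1904 and 1853 at the low dose, 1891, 1915 and 1850 at the medium dose and 2656, 2602 and 2833 at the high dose. Only the high dose libraries stood apart from the other groups. The change was 0.47 at the high dose (SE 0.0437, adjusted p = 1.37e-25) and -0.05 at both the medium dose (95% interval -0.14 to 0.04) and the low dose (-0.13 to 0.04). GCLC was a DEG at the medium and high doses, and GCLM at neither.

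The ratio of GCLC to GCLM counts within a library gives the same contrast free of the scaling between libraries. The ratio was chosen after the values were seen, and is not corrected for gene length. It was 0.348, 0.336 and 0.322 in the vehicle libraries, 0.34, 0.357 and 0.403 at the low dose, 0.552, 0.523 and 0.59 at the medium dose and 0.959, 0.975 and 0.935 at the high dose. The medium and high dose libraries did not overlap with vehicle, and the log2 ratio was higher by 0.73 and by 1.51. The exact two-sided permutation p was 0.1 for each, the smallest that 3 libraries against 3 allow. The ratio of NFE2L2 to KEAP1 counts was not planned beforehand either. It stood between 1.25 and 1.53 in all vehicle, low and medium dose libraries and at 2.13, 2.16 and 2.17 at the high dose. Against vehicle that was a change of 0.63 on the log2 scale (exact permutation p = 0.1).

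**Figure D1:**
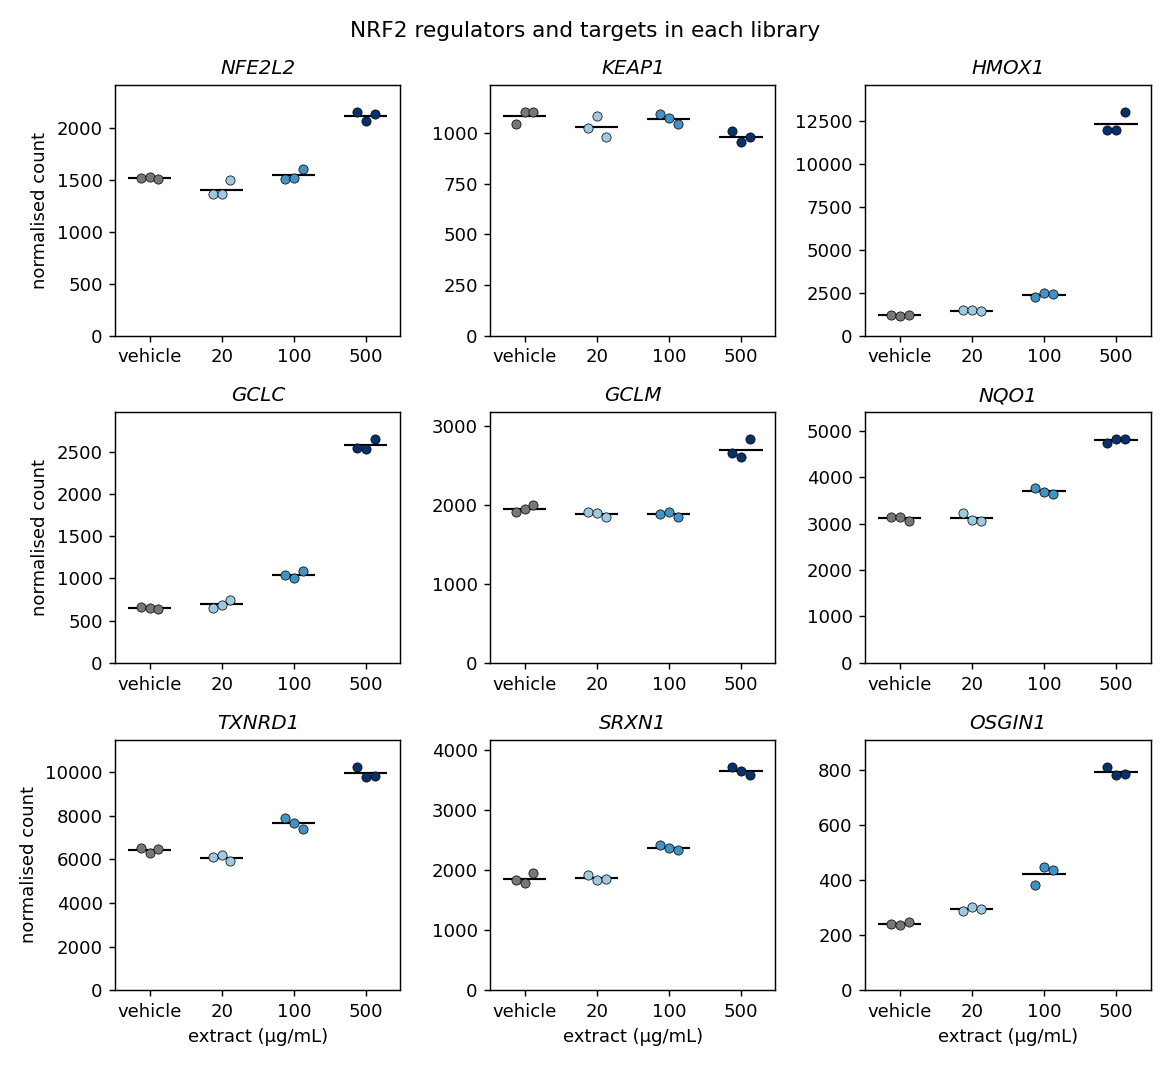
Normalised counts of the 9 genes (vertical axes, each from 0) in the 12 libraries, by group (horizontal axes, vehicle and extract dose in µg/mL). Each point is a library and each bar the group mean. HMOX1 goes from 1177 ± 21.6 in vehicle to 12344 ± 624 at 500 µg/mL (SD, n = 3), while KEAP1 goes from 1086 ± 35.6 to 984 ± 28.0.

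NQO1, TXNRD1 and SRXN1, which spend or serve cellular reducing power, shared 1 pattern of calls, which GCLC and OSGIN1 had too. It was no call at the low dose, a rise at the medium dose and a larger level at the high dose. NQO1 (ENSG00000181019, chr16:69706996-69726668, minus strand) encodes a quinone reductase. Its normalised counts were 3146, 3141 and 3060 in vehicle, 3239, 3082 and 3048 at the low dose, 3765, 3687 and 3637 at the medium dose and 4739, 4821 and 4816 at the high dose. The low dose libraries spanned the vehicle libraries, and both higher doses lay above them without overlap. NQO1 was higher by 0.25 at the medium dose (SE 0.0345, adjusted p = 2.53e-11) and by 0.62 at the high dose (SE 0.0338, adjusted p = 6.59e-74). An unnamed gene on the opposite strand covers 19.4% of its exon bases.

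TXNRD1 (ENSG00000198431, chr12:104215779-104350307, plus strand) encodes cytosolic thioredoxin reductase, the selenium enzyme that recharges thioredoxin. It had 6502, 6289 and 6468 normalised counts in vehicle, 6092, 6212 and 5918 at the low dose, 7876, 7641 and 7404 at the medium dose and 10245, 9773 and 9827 at the high dose. The 3 low dose libraries were below the 3 vehicle libraries, at -0.08 on the log2 scale (95% interval -0.14 to -0.02), without passing the test (adjusted p = 0.172). TXNRD1 was higher by 0.25 at the medium dose (SE 0.031, adjusted p = 2.17e-14) and by 0.63 at the high dose (SE 0.0307, adjusted p = 1.47e-92).

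SRXN1 (ENSG00000271303, chr20:646615-653200, minus strand) encodes sulfiredoxin, which repairs overoxidised peroxiredoxins. Vehicle libraries held 1844, 1780 and 1962 normalised counts, low dose libraries 1925, 1841 and 1851, medium dose libraries 2417, 2364 and 2344, and high dose libraries 3729, 3653 and 3584. Low dose and vehicle libraries overlapped, and the 2 higher doses formed separate steps above them. SRXN1 was higher by 0.35 at the medium dose (SE 0.0432, adjusted p = 1.45e-14) and by 0.97 at the high dose (SE 0.042, adjusted p = 4.5e-117). Another gene ID on the same strand covers 90.7% of its exon bases and was listed at 0 in every library, so the split of shared reads between the pair is uncertain.

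OSGIN1 (ENSG00000140961, chr16:83931311-83966332, plus strand), named as a growth inhibitor induced by oxidative stress, was the other listed gene with groups separate in dose order. Its normalised counts were 240, 237 and 249 in vehicle, 288, 303 and 296 at the low dose, 383, 447 and 436 at the medium dose and 813, 782 and 784 at the high dose. As for HMOX1, no libraries overlapped between any groups, in the order of the doses, and the share of all genes in this order was not counted. TXNRD1 groups did not overlap either, but its low dose libraries lay below vehicle. OSGIN1 was higher by 0.81 at the medium dose (SE 0.0948, adjusted p = 6.28e-16) and by 1.71 at the high dose (SE 0.0905, adjusted p = 4.1e-78). At the low dose the difference of 0.29 (95% interval 0.10 to 0.48) missed the threshold in DESeq2 (adjusted p = 0.0786) and passed it in the edgeR quasi-likelihood test (0.0303) and in limma voom (0.0477).

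**Figure D2:**
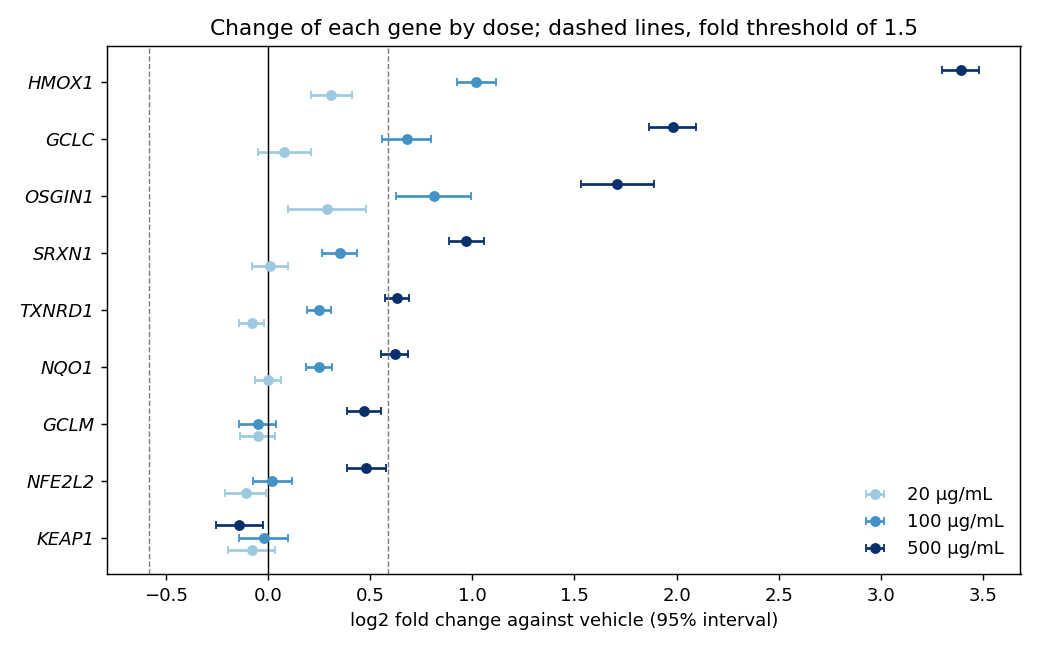
Log2 fold change of each gene against vehicle (horizontal axis) at 20, 100 and 500 µg/mL, with 95% intervals. The dashed lines mark a fold of 1.5 in either direction. At 500 µg/mL the estimates of HMOX1, GCLC, OSGIN1, SRXN1, TXNRD1 and NQO1 lie past the line, with HMOX1 at 3.39, and those of NFE2L2, GCLM and KEAP1 lie within it.

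The counts of calls were read against those over all genes tested. At the high dose 8 of the 9 genes were higher and 1 was lower, where 46.5% of 19453 genes differed, 23.9% higher and 22.6% lower. DEGs numbered 6 of 9, all higher, where 18.2% of all genes were DEGs and 8.66% were DEGs that rose. At the medium dose 6 genes were higher and 0 lower, where 29.5% of 14082 genes differed, 15.1% higher and 14.5% lower. HMOX1, GCLC and OSGIN1 were DEGs there, against 2.34% of all genes. At the low dose 1 gene was higher, where 3.29% of 9304 genes differed and 2.05% were higher. At the low dose 0 of the 9 were DEGs in DESeq2, in edgeR or in limma voom, where 0.118% of all genes were DEGs in DESeq2. An unadjusted Wald p under 0.05 was found there for 4 of the 9, in both directions. Their log2 changes were 0.31 for HMOX1, 0.29 for OSGIN1, -0.11 for NFE2L2 and -0.08 for TXNRD1. How many of all genes fell under that unadjusted limit was not counted. The median log2 fold change of the 9 genes was 0.00 at the low, 0.25 at the medium and 0.63 at the high dose, beside 0.00 over all 15282 genes averaging 10 or more normalised counts. Dose and vehicle libraries did not overlap for 9 genes at the high, 6 at the medium and 4 at the low dose, where this held for 60.4%, 50.3% and 25.7% of all genes.

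Neighbouring doses, each 5 times the dose before it, were set against each other to see where along the range a gene moved. From 20 to 100 µg/mL 7 of the 9 genes rose, where 18.9% of all genes differed and 9.29% were higher. The 7 include NFE2L2, and 6 remained with the replicate block, without independent filtering and with the compared groups alone. From 100 to 500 µg/mL 8 rose, where 40.9% differed and 21.1% were higher. In the first step HMOX1 rose 1.63-fold, GCLC 1.51-fold and OSGIN1 1.43-fold, and HMOX1 and GCLC were DEGs, where 1.35% of all genes were DEGs that rose. GCLC left the DEGs of this step without low replicate 1, low replicate 2 or medium replicate 3, since its fold of 1.51 sat on the limit, and 1 gene then remained. In the second step HMOX1 rose 5.19-fold, GCLC 2.47-fold, OSGIN1 1.87-fold and SRXN1 1.54-fold, and these 4 were DEGs, where 4.58% of all genes were DEGs that rose. KEAP1 was lower over the second step by 0.12 on the log2 scale, which missed the threshold in DESeq2 (adjusted p = 0.0805) and passed it in edgeR (0.0208) and limma voom (0.0192).

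Whether the second step was larger than the first was tested in the same DESeq2 model, as a contrast chosen after the values had been seen. It was larger by 1.67 on the log2 scale for HMOX1 (SE 0.0782, adjusted p = 8.7e-98), by 0.71 for GCLC (SE 0.102, adjusted p = 2.55e-10) and by 0.52 for GCLM (SE 0.0776, adjusted p = 9.04e-10). For NFE2L2 the difference of steps was 0.32 (adjusted p = 0.00216) and for SRXN1 0.28 (adjusted p = 0.00168). These 5 of 9 genes stand beside 16.3% of all genes tested, 8.54% with a larger second step. TXNRD1 rose by nearly the same amount in each step, with a difference of 0.05 (95% interval -0.05 to 0.16, adjusted p = 0.615). NQO1 differed by 0.13 (0.02 to 0.25, adjusted p = 0.11) and KEAP1 by -0.18 (adjusted p = 0.256). OSGIN1 differed by 0.39 (0.09 to 0.69), which missed the threshold in DESeq2 (adjusted p = 0.0654) and passed it in DESeq2 after the edgeR filter on low counts (0.0454), in edgeR (0.0136) and in limma voom (0.0154).

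**Figure D3:**
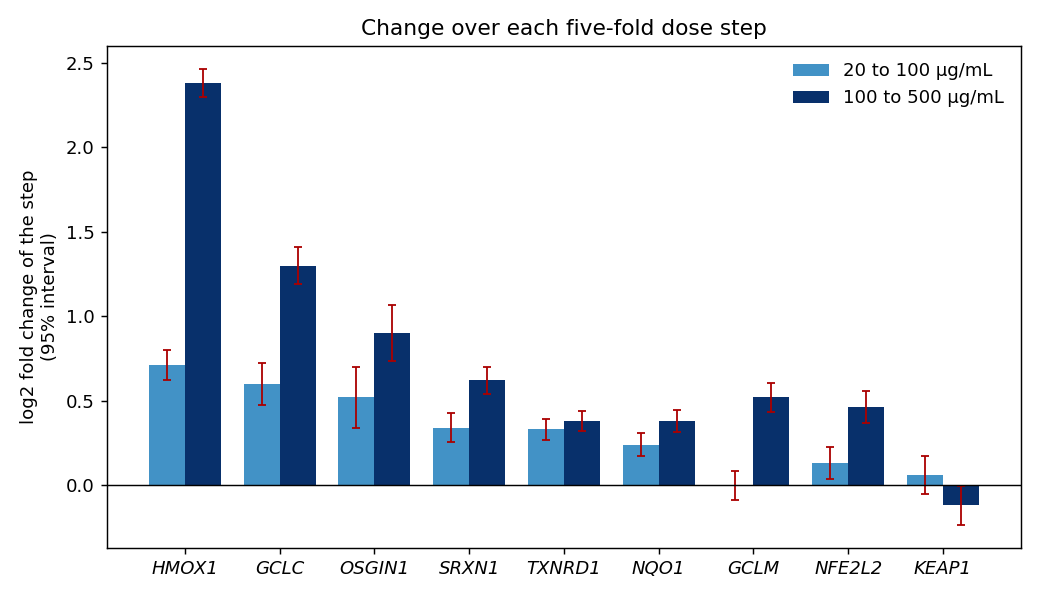
Log2 fold change (vertical axis) over the steps from 20 to 100 and from 100 to 500 µg/mL for each gene, with 95% intervals in red. HMOX1 gains 0.71 and then 2.38, TXNRD1 0.33 and then 0.38, and GCLM has no bar of visible height in the first step and 0.52 in the second.

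HMOX2, the constitutive haem oxygenase, went the other way from HMOX1. It averaged 762 ± 12.2 normalised counts in vehicle and 591 ± 12.7 at the high dose (SD, n = 3), a change of -0.37 (adjusted p = 3.43e-07). The ratio of HMOX1 to HMOX2 counts was 1.57, 1.51 and 1.55 in the vehicle libraries, 2.02, 2.00 and 1.86 at the low dose, 3.25, 3.67 and 3.74 at the medium dose and 20.8, 20.0 and 21.9 at the high dose. This ratio, also not planned beforehand, separated each dose from vehicle without overlap, as HMOX1 alone did (exact permutation p = 0.1, the smallest possible).

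**Figure D4:**
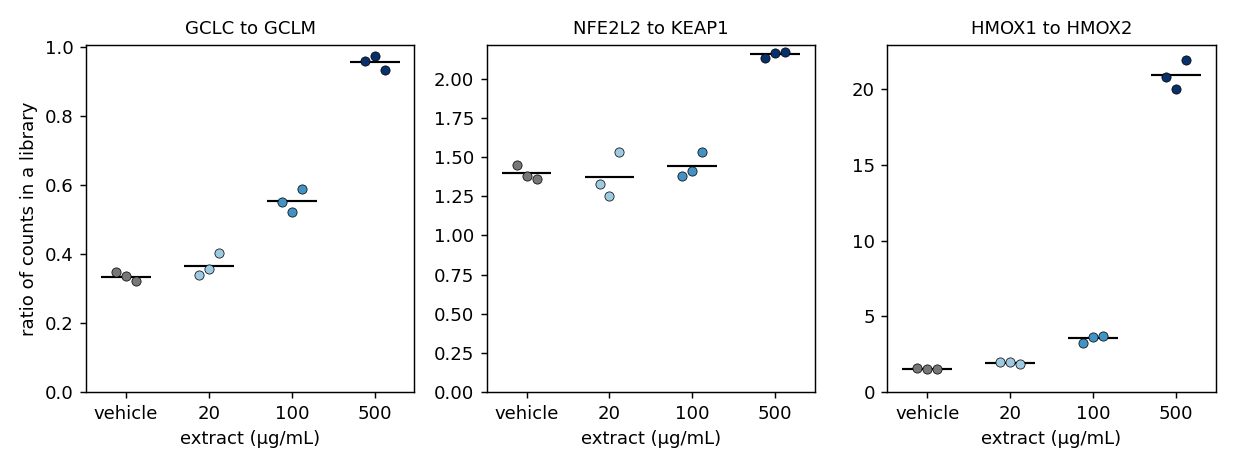
Ratio of read counts of 2 genes within a library (vertical axes, from 0) by group, with a point for each library and a bar for the mean. GCLC to GCLM goes from 0.335 in vehicle to 0.956 at 500 µg/mL, NFE2L2 to KEAP1 from 1.40 to 2.16, and HMOX1 to HMOX2 from 1.54 to 20.9.

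The wider pathway was read from 7 lists of 95 related genes, of which 92 were tested at the high dose. There 40 were higher, 29 lower and 23 did not pass, with 18 DEGs higher and 6 lower, and the median was 0.10 beside 0.00 over all genes. Over all genes at this dose 23.9% were higher and 22.6% lower, and 8.66% were DEGs that rose and 9.57% DEGs that fell, shares against which each list's counts at the high dose are to be read. At the medium dose 22 of 89 were higher and 15 lower, with 8 DEGs higher and 2 lower, where 15.1% and 14.5% of all genes were higher and lower and 2.34% and 1.48% were DEGs that rose and fell. At the low dose 4 of 74 were higher and 0 lower, where 2.05% of all genes were higher, namely CHAC1, SQSTM1, SESN2 and GPX1, and CHAC1 was the DEG among them. These 4 went to 2 without low replicate 2 or low replicate 3, and the count of DEGs to 0 without vehicle replicate 3 or any of the low dose libraries. The 0 lower covers the 74 tested genes only. TXNIP was not among them, as independent filtering left it without an adjusted p at the low dose. Its log2 difference from vehicle there was -1.01 (95% interval -1.38 to -0.65), and the libraries did not overlap. Neither the lists nor their median were tested against other genes.

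Of 17 partners and parts of the degradation machinery of NRF2, 9 genes were higher and 3 lower at the high dose, with 6 DEGs, all higher, and a median of 0.28. Of the small MAF proteins that NRF2 pairs with, MAFF rose by 2.05 and MAFG by 1.42. SQSTM1, whose protein p62 draws KEAP1 into autophagy, rose by 1.96, from 10322 ± 513 to 40292 ± 1112 normalised counts, with 22.4% of its exon bases under genes of the opposite strand. BACH1, a repressor that competes with NRF2 for the same elements, rose by 1.22, and SYVN1, an NRF2 ubiquitin ligase of the endoplasmic reticulum, by 0.99. Of the ligase subunits that act with KEAP1, CUL3 fell by 0.52 (adjusted p = 7.69e-20) and RBX1 fell by 0.47 (adjusted p = 2.6e-09). BTRC and GSK3B, of the KEAP1-independent route of NRF2 destruction, differed by -0.01 and 0.01 and did not pass the test, and FBXW11, of the same route, rose by 0.19 (adjusted p = 1.49e-05).

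Among 21 genes of glutathione synthesis and use 7 were higher, 10 were lower and 4 did not pass at the high dose, with a median of -0.10. SLC7A11, the cystine importer, rose by 0.99 at the medium and 1.86 at the high dose, from 2791 ± 70.8 to 10124 ± 208 normalised counts. CHAC1, an enzyme that degrades glutathione, rose by 2.94. GSR, glutathione reductase, rose by 0.33 and GSS, glutathione synthetase, by 0.14. The transferase GSTM1 fell by 0.63 and GSTM4 fell by 0.60, and as members of a family with near-identical copies their counts are uncertain. The exporter ABCC1 fell by 0.38.

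In the thioredoxin and peroxiredoxin list 4 of 15 genes were higher and 6 lower at the high dose, with a median of -0.14. SESN2, a stress-induced sestrin, rose by 2.74, and its relative SESN3 fell by 0.89. TXN, thioredoxin itself, rose by 0.29, and PRDX1 fell by 0.18. The NADPH suppliers had 6 of 8 genes higher and 0 lower, with a median of 0.29. MTHFD2, a mitochondrial folate enzyme, rose by 1.60 and IDH1 by 0.64, while PGD and TALDO1, of the pentose phosphate pathway, rose by 0.34 and 0.32.

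Of 16 genes of quinone and carbonyl detoxification 7 were higher and 5 lower at the high dose, with a median of 0.03. TRIM16 rose by 0.66 and AKR1C1 by 0.60, and AKR1C3 fell by 0.59, though AKR1C genes share much of their sequence and their counts are uncertain. In the list of haem breakdown and iron storage 7 of 12 genes were higher and 4 lower, with a median of 0.31. FTH1 and FTL, the ferritin subunits that store iron, rose by 2.05 and 1.52, the first with 63.2% of its exon bases under BEST1 on the opposite strand and both with many pseudogene copies. ALAS1, which starts haem synthesis, rose by 0.99, and BLVRB, a biliverdin reductase, by 0.73. NCOA4, the receptor that sends ferritin for breakdown, fell by 0.42, and TFRC, the transferrin receptor, differed by 0.06 without passing the test. In the last list SOD1 fell by 0.36, CAT and SOD3 did not pass, and SOD2 was not matched to a gene ID.

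**Figure D5:**
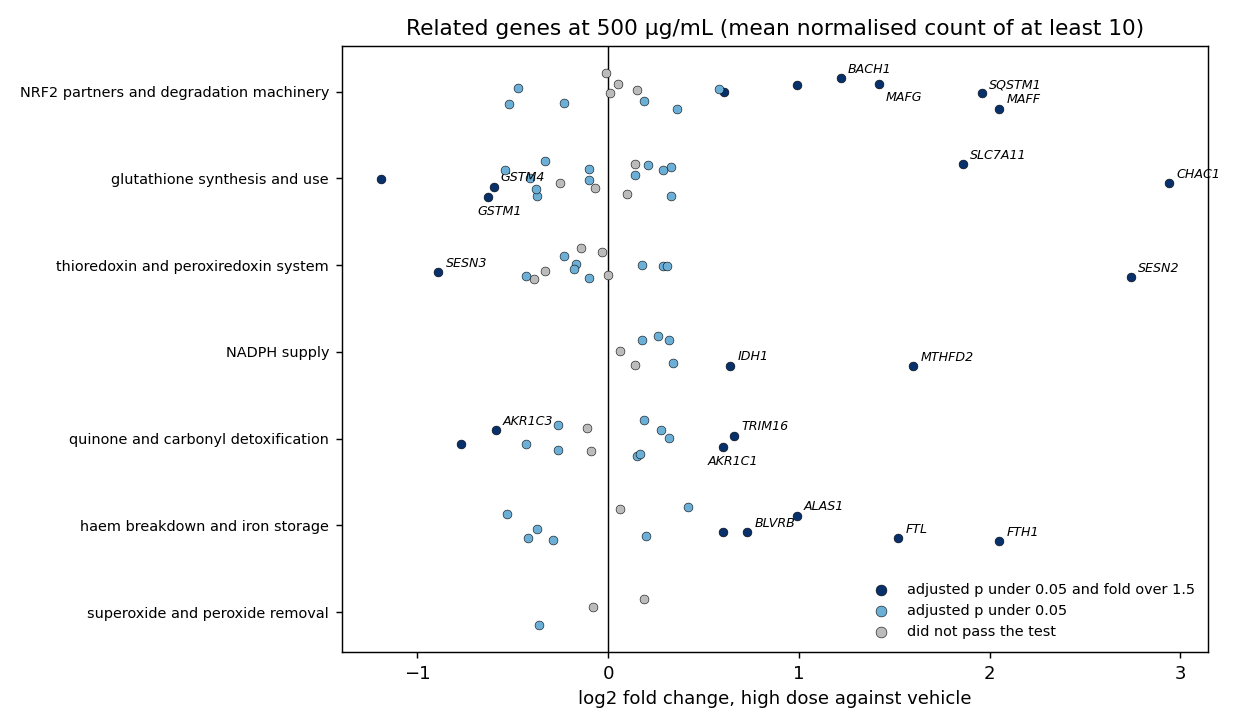
Log2 fold change at 500 µg/mL against vehicle (horizontal axis) of the related genes that average 10 or more normalised counts, by list (vertical axis, points spread within a list for legibility). Colours mark DEGs, genes that differed and genes that did not pass the test, and names mark up to 4 DEGs a list that average 100 or more. CHAC1 at 2.94 and SESN2 at 2.74 lie farthest right, and the lists of glutathione and thioredoxin genes lie on both sides of 0.

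The genes whose pattern over the 4 group means was nearest to that of HMOX1 were IER3, IL6, PLIN2, an unnamed gene (ENSG00000278266) and DUSP5, by Euclidean distance on centred log2 values among 11263 genes. Their distances lay between 0.164 and 0.334. IER3, an early response gene, had log2 differences from vehicle of 3.45 at the high, 0.87 at the medium and 0.23 at the low dose. Genes of the opposite strand cover 38.9% of its exon bases. For IL6, the cytokine interleukin 6, the differences were 3.48, 0.95 and 0.10. For PLIN2, which coats lipid droplets, they were 3.13, 0.67 and 0.06, and for DUSP5, a phosphatase of ERK, 2.95, 0.86 and 0.01. These values describe likeness over 4 group means, which was not tested, and calls for these genes are not given.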

How the data were processed

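RNA was sequenced from SW1783 cells in 12 libraries, 4 groups of 3, with each group and replicate number read from the labels. The authors made directional mRNA libraries, sequenced paired ends and, per the submitters' processing notes, used FastQC 0.11.9, Trim Galore 0.6.5, STAR 2.7.3a and RSEM 1.3.3 on GRCh38. The deposited values are expected counts from RSEM, which divides reads that fit several genes among them. Of its values, 8.75% were not whole, and they were rounded here.

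Symbols and coordinates came from GENCODE v44, later than the authors' annotation, which held 93.2% of the IDs. Library totals were 18863863 to 24200576, and replicates differed by more than counting noise (chi-square per degree of freedom 2.06 to 3.77 over 12 pairs). All genes of the 12 libraries were tested with a two-sided Wald test (DESeq2 1.42.0 in R 4.3.3), with group as the sole term and Benjamini-Hochberg adjustment over all genes tested. Independent filtering at 0.05 left low genes without an adjusted p, so the number tested differs between comparisons. Medians used genes averaging 10 or more normalised counts. The members and lists were chosen with earlier results of these data known. In each related list the rule names up to 4 DEGs of the high dose with the largest change among those averaging 100 or more normalised counts, and members that went against the rest. Related genes outside that rule were named after their values were seen.

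Deviations of same-numbered libraries correlated at 0.124 to 0.193 between the low and medium doses, over the limit of 0.1 set here. Over all 18 same-numbered pairs they correlated at -0.118 to 0.221, with 5 over 0.1. The highest was that of medium replicate 3 and high replicate 3. The labels do not say that libraries were paired, and these correlations were not tested. Alternatives were edgeR 4.0.16, limma 3.58.1 voom, TMM scaling, 2 other settings of independent filtering, the edgeR filter, no mitochondrial genes, only the groups compared, the replicate block, a test against a fold of 1.5, and each library left out. The calculations were tested on simulated data. Promoter windows were those of RefSeq.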

Additional observations from a re-analysis of the deposited data

How the results depend on the processing

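The 9 genes and their lists were recomputed under 10 other settings and with each library left out. Of 470 counts, 428 stayed within 1.5 times the value given, and of 877 values for single genes 824 kept their direction and side of the threshold, 37 lost a call (23 of them in the test against a fold of 1.5), 7 gained a call and 9 changed sign. Neither TMM scaling nor leaving out mitochondrially encoded genes shifted the log2 fold changes of all genes by a median of more than 0.004. Both ways of scaling take most genes as unchanged, so this does not test that premise. Shares of all genes were counted for the main DESeq2 test only. Counts under other settings therefore show how calls depend on the setting, with no background to read them against. The test against a fold of 1.5 asks a stricter question. Under it the genes of the 9 that differed numbered 4 at the high dose, 1 at the medium, 0 at the low, 3 from medium to high and 0 from low to medium, with 1 DEG at the medium dose and 0 from low to medium. The related genes that differed numbered 12, 6, 0, 8 and 4 in the same order, and the same numbers were DEGs. By list at the high dose, 5 partners, 2 glutathione, 1 thioredoxin, 1 NADPH, 0 quinone, 3 haem and 0 superoxide genes differed.

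At the low dose edgeR and limma voom each called 2 of the 9 genes, with OSGIN1 beside HMOX1, and 7 related genes, 2 of them DEGs. Related DEGs at the low dose were also 2 without independent filtering and 0 when the compared groups alone were fitted. With a library left out, related genes that differed at the low dose numbered 2 to 4 and DEGs 0 to 1, related genes that differed from low to medium 17 to 22, and DEGs of the 9 from low to medium 1 to 2. The 17 came without medium replicate 2, and the 2 related genes that differed at the low dose came without low replicate 2 or low replicate 3. The low dose DEG was lost without vehicle replicate 3 or any low dose library. Values that changed sign were all near 0: NFE2L2 at the medium dose without medium replicate 3 (0.00), GCLM from low to medium without low replicate 1 (0.00), low replicate 2 (0.00) or medium replicate 3 (0.01), NQO1 at the low dose under TMM scaling (0.00) and without vehicle replicate 3 (-0.01) or low replicate 1 (-0.02), and SRXN1 at the low dose without vehicle replicate 2 (-0.02) or low replicate 1 (-0.01). Over the libraries left out these values lay between 0.00 and 0.04 for NFE2L2, -0.02 and 0.01 for GCLM, -0.02 and 0.02 for NQO1 and -0.02 and 0.05 for SRXN1.

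With the replicate number as a block, KEAP1 lost its high dose call (adjusted p = 0.0686 in DESeq2) and NFE2L2 its medium over low call. Without independent filtering KEAP1 had an adjusted p of 0.0516. The labels give a replicate number only, and whether same-numbered libraries were paired was not tested. The cause of these changes was not tested. The 3 libraries a group and rounded expected counts limit small changes such as that of KEAP1, where the 95% interval reached from -0.26 to -0.03.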

Other observations

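Of the related genes, 3 had calls in both directions along the doses, TXNIP, ABCC3 and GPX1, a pattern looked for after the values were seen. It was not counted over all genes, so whether 3 is many cannot be told. TXNIP, which binds and inhibits thioredoxin, had 190, 172 and 171 normalised counts in vehicle, 82.7, 96.9 and 83.7 at the low dose, 62.6, 56.8 and 39.6 at the medium dose and 157, 141 and 109 at the high dose. Against vehicle it fell by 1.75 at the medium dose (SE 0.199, adjusted p = 4.91e-17 in DESeq2) and differed by -0.39 at the high dose, which missed the threshold (adjusted p = 0.0585), and the high dose was above the medium dose by 1.36 (SE 0.202, adjusted p = 1.4e-10). ABCC3, an exporter of conjugates, averaged 1982 ± 20.2 in vehicle, 2197 ± 103 at the low, 2494 ± 161 at the medium and 2120 ± 96.6 at the high dose (SD, n = 3). It rose by 0.33 at the medium dose (adjusted p = 2.41e-09), and from the medium to the high dose it fell by 0.24 (adjusted p = 2.47e-05). GPX1, a glutathione peroxidase, averaged 3707 ± 13.1, 4072 ± 154, 3985 ± 119 and 3446 ± 87.1 in the same order. It rose by 0.14 at the low dose (adjusted p = 0.0108), and at the high dose it fell by 0.10 against vehicle (adjusted p = 0.0118), with 39.9% of its exon bases under another gene ID on the same strand.

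CHAC1 kept the order of the doses but levelled off. It had 88.1, 75.3 and 88.5 normalised counts in vehicle, 149, 113 and 143 at the low dose, 617, 578 and 638 at the medium dose and 636, 605 and 679 at the high dose. The medium dose was above the low dose by 2.17 (SE 0.115, adjusted p = 1.17e-77). The medium and high dose libraries overlapped, with a log2 difference of 0.07 (95% interval -0.12 to 0.25, adjusted p = 0.625).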
